A study of Homo sapiens with 3 samples.

Results

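Genes were compared between a line of HaCaT keratinocytes that expressed wild-type THG-1 and a line that carried an empty vector, with 1 library on each side. All genes at 1 RPKM or more in either library were taken, which were 11993 of the 55773 gene symbols in the table. RPKM is a read count divided by the length of the gene and by the depth of its library. HaCaT is a spontaneously immortalized line of human keratinocytes, and every line of the series also expressed oncogenic HRAS (HRasG12V). The deposited series holds 3 lines, named HaCaT-Ras (-) for the empty vector, HaCaT-Ras-THG-1 (WT) for the wild-type protein and HaCaT-Ras-THG-1 (S264A) for a form with a serine changed to alanine. The S264A library is given beside the comparison, mostly as a level, and was read against the same empty-vector library only for runs of neighbouring genes. No source used here states which promoter drives the transgenes or whether a line is a pool or a single clone. The groups described are secreted proteins, surface proteins, transcription factors, metabolic enzymes and the cytoskeleton.

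THG-1, the product of TSC22D4, belongs to the TSC22 proteins, which pair through a leucine zipper and lack a classical DNA-binding basic region. Partners of these proteins include the pseudokinases NRBP1 and NRBP2 and kinases of the WNK pathway. Basal keratinocytes attach to a basement membrane through integrins and laminins, secrete growth factors of the EGF family, and change their keratins when they stratify, respond to wounding or are transformed.

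TSC22D4 was read first, since it checks the labels, and it stood at 7.98 RPKM with empty vector, 64.9 with wild-type THG-1 and 51.1 with S264A. The wild-type library held 8.14 times the empty-vector level, with a 95% interval of 7.57 to 8.76. Each interval printed here is an exact Clopper-Pearson interval of a ratio computed from reads, and covers counting error only. Without replicates no spread between cultures was measured, so that no p-value is given. HRAS was at 23.9, 27.8 and 22.4 RPKM in the order empty vector, wild type and S264A, a ratio of wild type to empty vector of 1.16 (1.06 to 1.28). The other 8 compared genes of the TSC22 family and its partners lay between -0.56 (TSC22D1) and 0.295 (STK39) in the log2 difference of RPKM + 1. TSC22D1, which encodes the founding member of the family, was at 8.91 RPKM with empty vector, 5.70 with wild type and 10.6 with S264A. TSC22D3, the glucocorticoid-induced member, had levels of 6.06, 4.35 and 8.09 RPKM.

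The empty-vector library was the deepest of the 3, at 32055052 reads. Wild-type THG-1 had 12733479 reads and S264A 14022885, with a factor of 2.52 between the compared libraries. A single read in a gene of 1 kb corresponds to 0.0312 RPKM with empty vector and 0.0785 RPKM with wild type. All 13 keratinocyte markers were compared, among them KRT5 at 367 and 240.5 RPKM, TP63 at 17.9 and 20.1 RPKM and COL17A1 at 72.1 and 93.4 RPKM with empty vector and wild type. Of the markers of other cell types, 1 gene each for fibroblasts (FBLN1), melanocytes (MITF) and immune cells (CD68) reached 1 RPKM in either library and none for endothelial cells. CD68 was at 0.941, 5.21 and 1.70 RPKM with empty vector, wild type and S264A, 5.53-fold higher (4.11 to 7.52), and its part in the results was not tested. MITF was at 0.600, 1.70 and 0.829 RPKM, which on the log2 scale of RPKM + 1 is a difference of 0.75, under 2-fold. PDGFRA, LUM, TYR, TEK and NKG7 were at 0 in all 3 libraries. In RNA from whole cultures, fewer cells of a type and less RNA per cell cannot be told apart.

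A gene was counted as higher or lower where the ratio of RPKM + 1 between the libraries reached 2-fold, a scale that understates differences of low genes. By this rule 543 genes (4.53%) were higher with wild-type THG-1 and 185 (1.54%) lower, 728 (6.07%) in either direction, so that 74.6% of the genes counted were higher. That share depended on the scaling: it was 52.2% (386 higher and 353 lower) after scaling both libraries to equal upper quartiles, and 62.4% (435 and 262) after scaling them to equal sums. The median log2 difference of all compared genes was -0.01 as deposited, -0.22 with upper-quartile scaling and -0.14 with equal sums, so that list medians below are to be read against these values. Most genes differed little, with 9868 (82.3%) within 1.5-fold on the same scale. Of the genes counted as higher, 239 reached 1 RPKM in the wild-type library alone, and 104 of those counted as lower did so in the empty-vector library alone. A gene that reached 1 RPKM in 1 library alone could be counted in that direction only. The counting interval of the ratio lay above 1 for 526 of the 543 higher genes and below 1 for 163 of the 185 lower genes. At the edge of the filter, PRR22 at 0.553 and 1.0001 RPKM just entered. AC016586.1 at 0.99988 and 0.929 RPKM was just left out.

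**Figure D1:**
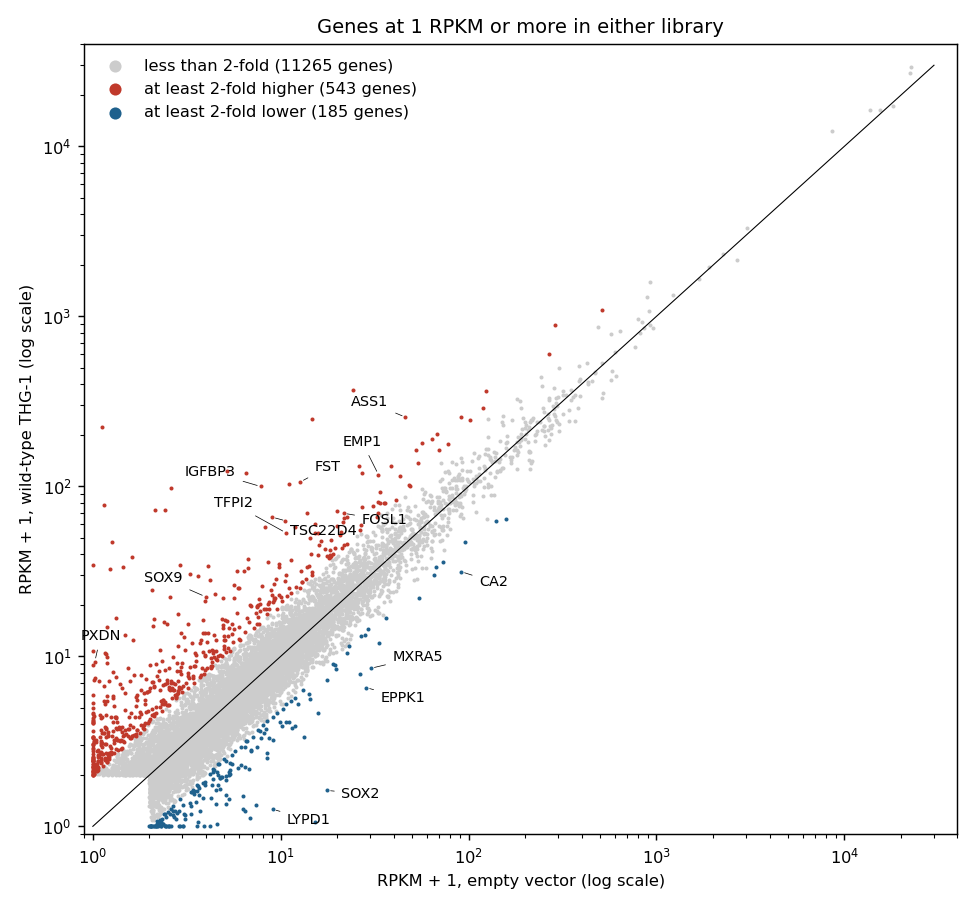
Level of each of the 11993 compared genes with empty vector (x axis) and with wild-type THG-1 (y axis), as RPKM + 1 on log scales, with the line of equal levels. Red points are the 543 genes at least 2-fold higher and blue points the 185 genes at least 2-fold lower, and the labelled genes are described in the text.

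The lists of the 5 classes, 68 in all, held 1446 compared genes, of which 128 were higher and 47 lower. Among secreted proteins 30 of 160 compared genes were higher (18.8%) and 8 lower (5%), among surface proteins 19 (7.57%) and 15 (5.98%) of 251, and among transcription factors 21 (7.78%) and 9 (3.33%) of 270. Metabolic genes had 32 (7.32%) higher and 8 (1.83%) lower of 437, and cytoskeletal genes 26 (7.9%) and 7 (2.13%) of 329. These shares stand beside 4.53% and 1.54% over all compared genes. No list test was run.

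**Figure D2:**
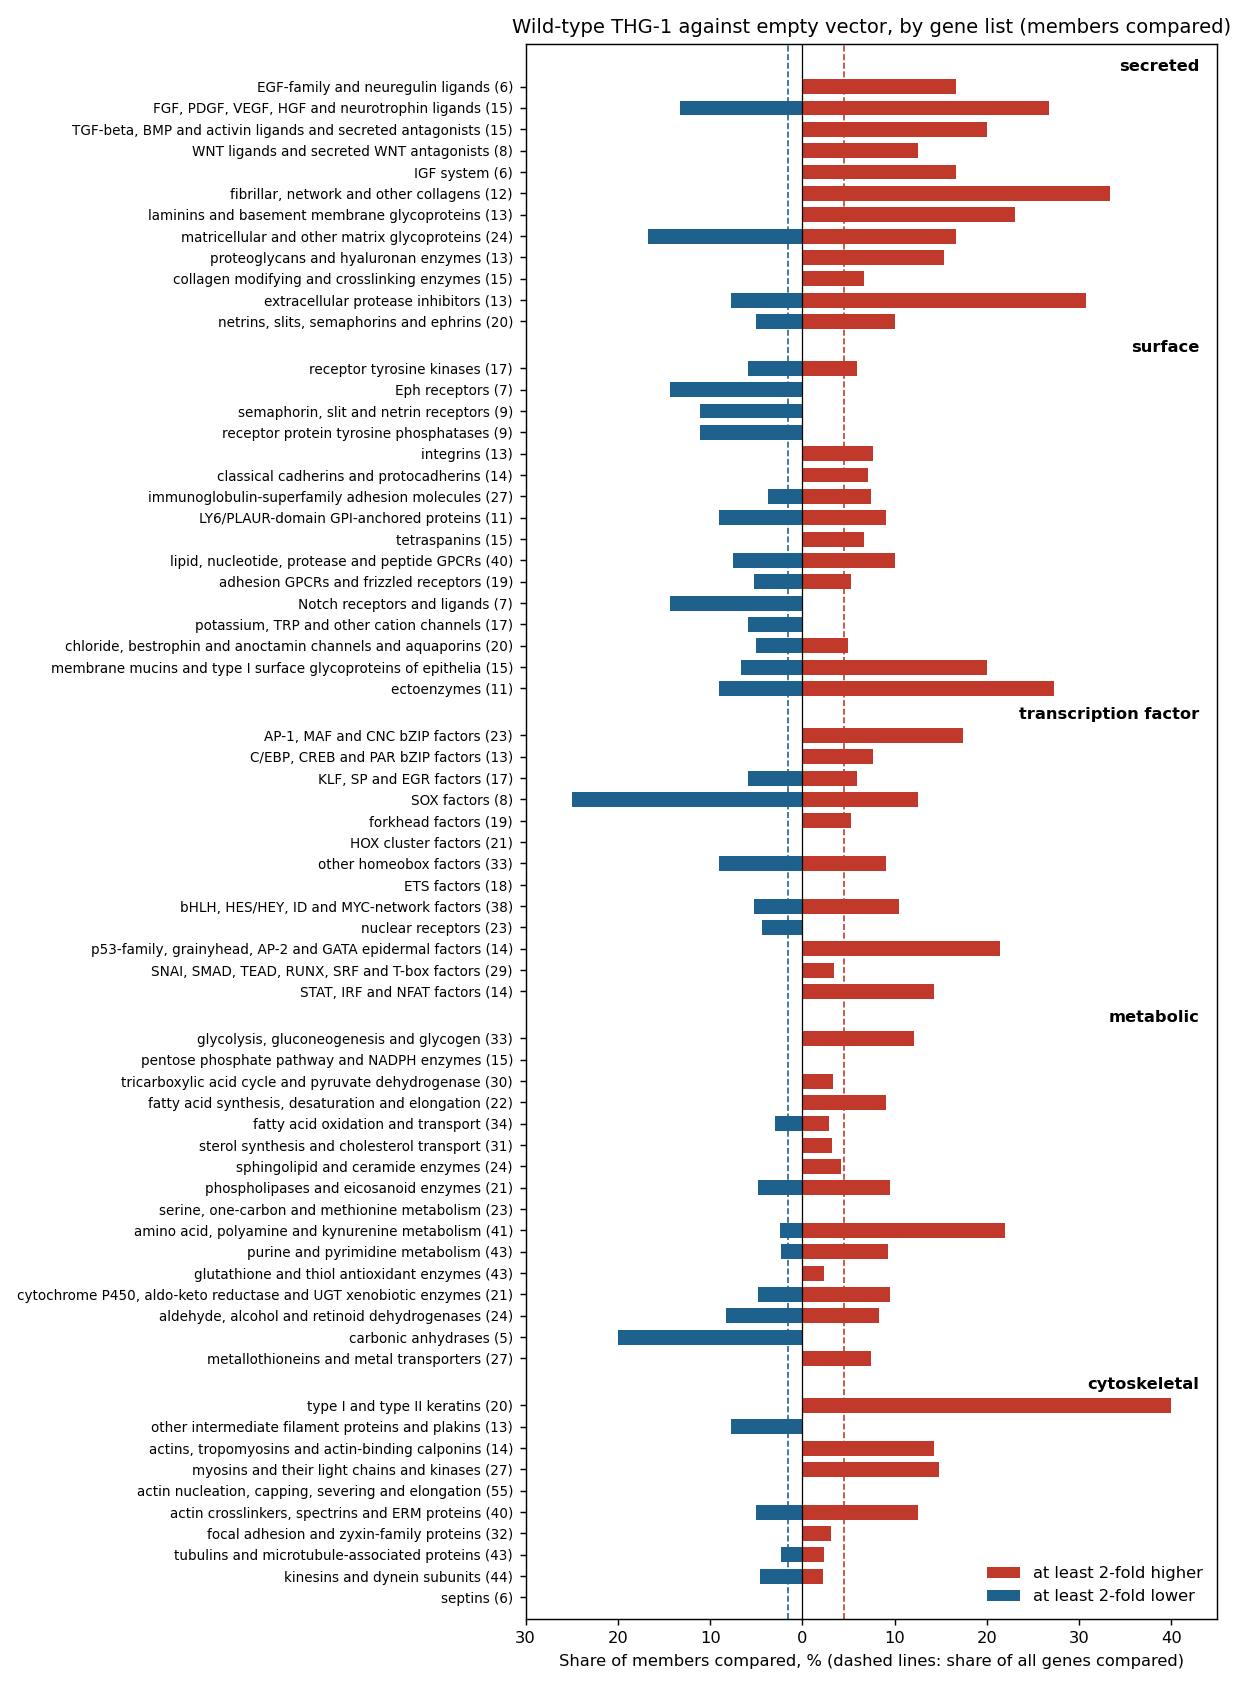
Share of the compared members of each gene list shown that were at least 2-fold higher (red, to the right) or lower (blue, to the left) with wild-type THG-1 than with empty vector, in percent, with the number of members compared in brackets. Dashed lines mark the shares over all compared genes, 4.53% and 1.54%, and the keratin list has the longest bar, at 40% higher.

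Promoter sequence was looked at for the genes named by rule, and of the letters searched only matches to those of AP-1 are printed. The part of AP-1 in the levels was not tested. AP-1 is the dimeric factor of FOS and JUN proteins. The letters searched were TGANTCA, which read alike on both strands, in the 300 bases from 250 before to 50 after the start of each gene in the RefSeq promoter table (GRCh38.p14). A match was found in 7.76% of the 27305 promoters listed there and in 4.66% of the 8269 that belong to compared genes. The TEAD letters GGAATG and the STAT letters TTCNNNGAA were searched as well and occur in 14% and 7.88% of all promoters listed, and their matches are not shown. Of the 65 genes named by rule, the most different of each class and outside the lists, 45 had a promoter there. Of these, 8 held a TGANTCA match. No share is read from these 8, and the comparison of all higher genes with all lower genes was void, because too few had a promoter in the table, 310 of 543 and 109 of 185. The 6 class members among these 8 are printed, with the match in capitals and 30 bases on either side. Other class members described below, such as ECM1, ENO2, MT2A and CLCA2, also held a match and are not printed. FST encodes the activin antagonist follistatin, TFPI2 a protease inhibitor, EMP1 a membrane protein of epithelia, PLAUR the urokinase receptor, NOS1 neuronal nitric oxide synthase and LYPD1 a small GPI-anchored protein. All were higher with wild-type THG-1 except LYPD1, which was lower.
FST, chr5:53480439-53480505, plus strand, match 160 bases before the start: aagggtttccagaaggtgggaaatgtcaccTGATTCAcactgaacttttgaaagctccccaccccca
TFPI2, chr7:93890804-93890870, minus strand, match 87 bases before the start: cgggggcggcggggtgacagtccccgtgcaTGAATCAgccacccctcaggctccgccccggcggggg
EMP1, chr12:13196521-13196714, plus strand, matches 175 and 48 bases before the start: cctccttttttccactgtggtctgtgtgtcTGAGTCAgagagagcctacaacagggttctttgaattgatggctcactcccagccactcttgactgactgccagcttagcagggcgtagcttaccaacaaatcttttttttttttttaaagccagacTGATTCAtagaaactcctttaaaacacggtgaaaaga
PLAUR, chr19:43670319-43670385, minus strand, match 186 bases before the start: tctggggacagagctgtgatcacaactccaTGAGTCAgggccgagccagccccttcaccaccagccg
NOS1, chr12:117309485-117309551, minus strand, match 111 bases before the start: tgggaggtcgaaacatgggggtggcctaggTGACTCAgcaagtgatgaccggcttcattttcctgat
LYPD1, chr2:132671700-132671773, minus strand, adjoining matches 217 and 210 bases before the start: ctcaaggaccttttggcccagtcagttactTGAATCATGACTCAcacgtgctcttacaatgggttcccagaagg
Both LYPD1 matches adjoin without a base between them, and the EMP1 matches lie on either side of a run of T. A match in these letters is a description and was not measured as a bound site.

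Among secreted ligands, members of several growth factor families were higher with wild-type THG-1. In the EGF family, whose members activate EGFR and its relatives, 1 of 6 compared genes was higher and 0 lower. This gene was HBEGF, at 2.31 RPKM with empty vector, 7.60 with wild type and 2.58 with S264A (3.30-fold, 2.76 to 3.94). AREG, EREG and TGFA, the other EGFR ligands compared, lay between 0.69 and 0.96 on the log2 scale, short of the 2-fold rule. The median of the list was 0.80, and 0.66 with upper-quartile scaling. In the list of FGF, PDGF, VEGF, HGF and neurotrophin ligands 4 of 15 were higher and 2 lower. The higher genes were PDGFB (1.72 to 5.35 RPKM, 3.11-fold, 2.58 to 3.76), the angiogenic factors VEGFA (4.22 to 10.1 RPKM) and PGF (0.162 to 1.45 RPKM), and ANGPTL4 (2.51 to 7.75 RPKM). PDGFC, a further PDGF chain, was lower, from 3.29 to 0.744 RPKM (4.41-fold, 3.33 to 5.96). The neurotrophin gene BDNF was at 2.10 RPKM with empty vector, 0.162 with wild type and 0.571 with S264A, 12.96-fold lower (7.91 to 22.8).

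Secreted regulators of TGF-beta, BMP, WNT and IGF signalling included 2 of the most different secreted genes. IGFBP3, which binds insulin-like growth factors outside the cell, was at 6.82 RPKM with empty vector, 98.8 with wild type and 32.7 with S264A, 14.5-fold higher (13.5 to 15.5). It was the only member counted of 6 in the IGF system, and the rest lay between -0.25 and 0.65. FST, whose promoter stretch is printed above, was at 11.7, 105 and 33.6 RPKM, 8.98-fold higher (8.40 to 9.60). With FST, 3 of 15 TGF-beta family ligands and antagonists were higher and 0 lower, the others being GDF15 (1.12 to 5.57 RPKM) and BMP2 (0.399 to 2.16 RPKM). The WNT antagonist gene DKK1 was at 13.1, 32.9 and 20.8 RPKM, 2.51-fold higher (2.29 to 2.75) with wild type. It was the 1 member counted of 8 WNT ligands and antagonists, and WNT7A and WNT7B lay just below the rule at 0.94 and 1.00 on the log2 scale.

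Of the matrix, collagens and basement membrane proteins had higher members only, 4 of 12 and 3 of 13. PXDN, which encodes the peroxidase that crosslinks collagen IV, had 9 reads with empty vector (0.0249 RPKM), 8.32 RPKM with wild type and 0.247 RPKM with S264A. Its ratio was 334 (175 to 732). COL27A1, a fibrillar collagen gene, went from 1.01 to 7.94 RPKM with 3.05 in S264A, and COL13A1, COL16A1 and COL9A2 were below 0.2 RPKM with empty vector and between 2.12 and 3.49 RPKM with wild type. NID2, which encodes a nidogen, was at 0.775 and 3.74 RPKM. PXDN, NID2, COL13A1, COL16A1 and COL9A2 reached 1 RPKM in the wild-type library alone of the 2 compared, and could be counted as higher only. LOXL2, a lysyl oxidase gene, was at 1.95 RPKM with empty vector, 7.68 with wild type and 1.89 with S264A, so that the S264A level did not exceed that of the empty vector.

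Matricellular genes were divided, with 4 of 24 higher and 4 lower. SPARC, which encodes osteonectin, was read 1 time with empty vector and 303 times with wild type (0.00646 and 4.93 RPKM), with 1.61 RPKM in S264A, and its ratio of 763 had an interval from 136 to 30226. The CCN family went both ways. CYR61 (CCN1) was at 5.87, 19.1 and 6.36 RPKM with empty vector, wild type and S264A, and CTGF (CCN2) at 0.267, 1.71 and 0.701 RPKM. NOV (CCN3) was at 2.70, 0.235 and 1.81 RPKM, 11.5-fold lower with wild type (5.72 to 26.9, from 231 and 8 reads). MXRA5, a matrix protein gene, was at 29.2, 7.51 and 18.4 RPKM, 3.89-fold lower (3.64 to 4.17). EDIL3, which binds integrins through an RGD sequence, was at 4.09, 0.520 and 0.646 RPKM, 7.87-fold lower (5.68 to 11.2). MATN2 was 2.84-fold lower (2.42 to 3.36) and ECM1 2.10-fold higher (1.94 to 2.29).

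Extracellular protease inhibitors had 4 of 13 members higher and 1 lower, with a median of 0.48 that was also 0.48 with upper-quartile scaling. TFPI2, whose product inhibits plasmin and trypsin, was at 9.65 RPKM with empty vector, 52.3 with wild type and 11.1 with S264A, 5.42-fold higher (4.99 to 5.89). TIMP3, an inhibitor of metalloproteinases, was at 1.48, 6.21 and 10.1 RPKM, highest in S264A. SPINK5, which encodes the epidermal kallikrein inhibitor LEKTI, was at 10.04, 3.12 and 5.99 RPKM and was 3.22-fold lower (2.75 to 3.79). CST2 rested on 3 and 24 reads and has close paralogs.

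Both hyaluronan genes counted were higher. HAS3, a hyaluronan synthase gene, went from 9.73 to 29.1 RPKM and KIAA1199 (CEMIP), needed for hyaluronan breakdown, from 4.18 to 15.0 RPKM. Of 20 netrins, slits, semaphorins and ephrins 2 were higher and 1 lower. The GPI-anchored semaphorin gene SEMA7A was at 0.659, 6.78 and 2.30 RPKM with empty vector, wild type and S264A, 10.3-fold higher (8.16 to 13.1). SEMA6B was at 1.88, 5.59 and 0.548 RPKM. SEMA5A was at 3.63, 1.01 and 3.87 RPKM, 3.58-fold lower with wild type (3.03 to 4.25).

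At the cell surface, receptor genes were found on both sides. FGFR3, a fibroblast growth factor receptor gene, was at 7.42 RPKM with empty vector, 1.71 with wild type and 8.98 with S264A, 4.35-fold lower (3.56 to 5.36). AXL, a receptor for GAS6, was at 4.37, 9.81 and 4.497 RPKM, 2.25-fold higher (2.02 to 2.50), and FGFR3 and AXL were the 2 genes counted among 17 receptor tyrosine kinases. Each of 4 further receptor families had a single lower member and 0 higher ones. Over all compared genes 1.54% were lower and 4.53% higher. These 4 members were below 1 RPKM with wild type, entered through the empty-vector library alone and could be counted as lower only. These were EPHA4 of 7 Eph receptors (1.29 to 0.0936 RPKM), ROBO1 of 9 semaphorin, slit and netrin receptors (2.55 to 0.390 RPKM), NOTCH3 of 7 Notch receptors and ligands (3.35 to 0.893 RPKM) and PTPRZ1 of 9 receptor phosphatases. PTPRZ1, whose extracellular part binds pleiotrophin, was at 5.49, 0.238 and 4.93 RPKM, 23.1-fold lower with wild type (16.1 to 34.4). In FGFR3, NOTCH3 and PTPRZ1 the S264A library lay near or above the empty-vector level.

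G protein-coupled receptors had 4 of 40 members higher and 3 lower in the list of lipid, nucleotide, protease and peptide receptors. GPR176, an orphan receptor gene, was at 0.274, 7.12 and 0.738 RPKM with empty vector, wild type and S264A, 26.0-fold higher (19.1 to 36.1). FFAR2 (1 and 59 reads) and HTR1D (10 and 55 reads) were higher from near the limit of detection. The lower members were GPR161, a receptor of cilia, from 3.64 to 0.758 RPKM, LGR6, an R-spondin receptor of epidermal progenitors, from 2.06 to 0.188 RPKM, and GPR37, from 117 to 3 reads. FZD6, a WNT receptor gene, was 2.51-fold lower (2.25 to 2.80) and the adhesion receptor gene GPR110 2.46-fold higher (2.28 to 2.65).

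The shares of adhesion genes counted as higher were 7.69% for integrins, 7.14% for cadherins and 7.41% for the immunoglobulin superfamily, ICAM1 included. Those counted as lower were 0, 0 and 3.7%. Over all compared genes the shares were 4.53% and 1.54%. Among 13 integrins 1 was higher, the fibronectin receptor chain ITGA5 (3.26, 7.57 and 2.95 RPKM with empty vector, wild type and S264A), and 0 lower, and among 14 cadherins 1, CDH4 (1.35, 5.76 and 4.05 RPKM). In the immunoglobulin superfamily MPZL2 (9.06 to 21.3 RPKM) was higher and BCAM, which binds laminin alpha-5, was lower (18.4 to 7.93 RPKM). PLAUR and LYPD1, both of the LY6 and urokinase receptor family, stood at opposite ends. PLAUR was at 2.97, 12.7 and 4.10 RPKM, 4.29-fold higher (3.80 to 4.84). LYPD1 was at 8.06, 0.260 and 0.443 RPKM, 30.9-fold lower (15.6 to 72.0), and both THG-1 libraries lay far below the empty vector.

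Of 15 membrane mucins and surface glycoproteins of epithelia 3 were higher and 1 lower. EMP1 was at 32.1 RPKM with empty vector, 116 with wild type and 93.9 with S264A, 3.63-fold higher (3.53 to 3.72), and ST14, which encodes the protease matriptase, was 2.78-fold higher (2.67 to 2.89). CD82, a tetraspanin gene, was at 6.97, 24.99 and 16.8 RPKM, 3.58-fold higher (3.29 to 3.91). MUC1 went the other way, at 22.0, 10.5 and 5.41 RPKM, 2.10-fold lower (1.93 to 2.29). Ectoenzymes had 3 of 11 members higher, GGT1, ENTPD3 and VNN1. VNN1, the pantetheinase gene, had 49 reads with wild type and 0 with the empty vector. With 3 reads standing in for 0, VNN1 was 41.1-fold higher, a figure that leaves out the counting error of the 49 reads. ALPP, which encodes placental alkaline phosphatase, was at 14.7, 3.62 and 41.3 RPKM, so that it was 4.07-fold lower (3.42 to 4.88) with wild type and highest with S264A. ALPP and GGT1 have near-identical relatives, and the treatment of reads shared by paralogs is not stated in any source used here. Among channels, CLCA2 (6.83 to 2.31 RPKM) and CACNG4 (133 to 2 reads) were lower and LRRC8A, the core subunit of volume-regulated anion channels, was higher (35.0, 78.5 and 89.0 RPKM).

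**Figure D3:**
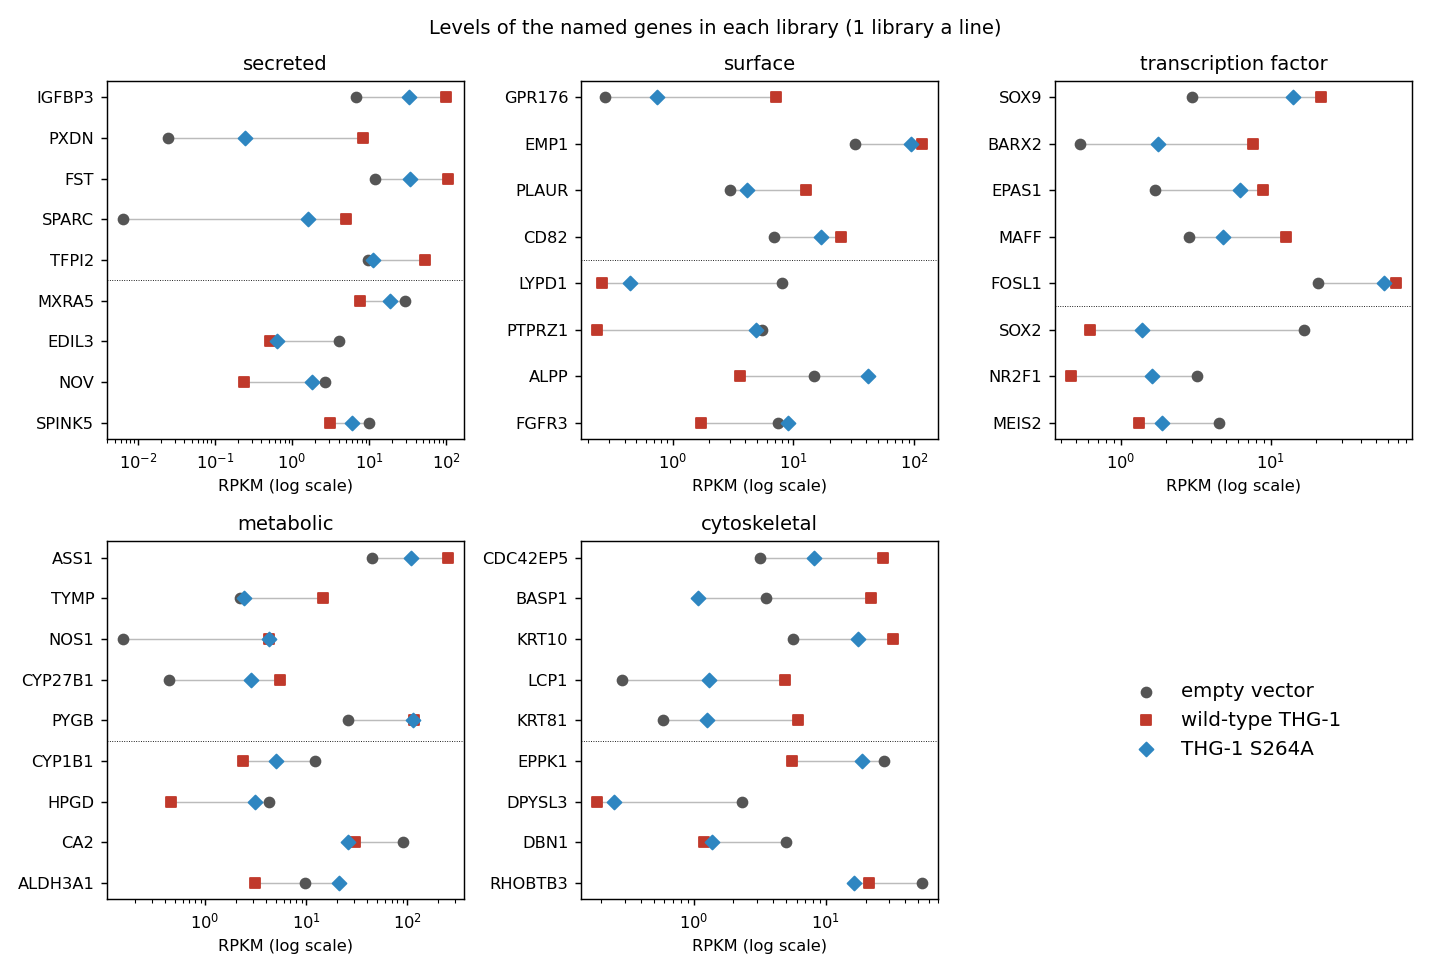
Level in RPKM (log x axis) of genes of each class named by rule, in the empty-vector (grey circle), wild-type THG-1 (red square) and S264A (blue diamond) libraries, with 1 library a line. Genes above the dotted line were at least 2-fold higher and those below it lower by that much, and the S264A value falls on either side of the empty-vector value, as in BASP1, ALPP and ALDH3A1.

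Transcription factors of the AP-1, MAF and CNC families had 4 of 23 members higher and 0 lower. The median of that list was 0.20 as deposited and -0.04 with upper-quartile scaling. FOSL1, which encodes the AP-1 subunit FRA-1, was at 20.6 RPKM with empty vector, 68.4 with wild type and 57.0 with S264A, 3.32-fold higher (3.08 to 3.57). MAFF, a small MAF gene, was at 2.85, 12.6 and 4.81 RPKM, 4.43-fold higher (3.99 to 4.93). JUN was at 3.28, 8.77 and 6.68 RPKM, 2.68-fold higher (2.31 to 3.11). BATF2 was read 1 time with empty vector and 33 times with wild type. Other factors downstream of growth factor signalling were MYC (32.0, 80.1 and 54.6 RPKM, 2.50-fold, 2.38 to 2.63) and EGR1 (1.77, 4.78 and 1.98 RPKM).

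On the deposited scale SOX factors stood at both extremes of this class, with log2 differences of 2.49 (SOX9) and -3.44 (SOX2). BARX2 was at 2.48, and above SOX9 under the 3 other scalings. SOX9, a factor of hair follicle and epidermal progenitors, was at 2.98 RPKM with empty vector, 21.4 with wild type and 14.1 with S264A, 7.18-fold higher (6.38 to 8.10). SOX2, a pluripotency factor also found in squamous tumours, was at 16.6, 0.626 and 1.39 RPKM, 26.6-fold lower (17.1 to 43.6). SOX21, a relative of SOX2, was read 17 times with empty vector and 0 times in both THG-1 libraries. Of 8 SOX genes compared, these 3 were the ones counted.

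Homeobox factors outside the HOX clusters had 3 of 33 members higher and 3 lower. BARX2 was at 0.536 RPKM with empty vector, 7.58 with wild type and 1.77 with S264A, 14.1-fold higher (10.5 to 19.2). MEOX1 was at 0.542, 2.76 and 14.5 RPKM, highest with S264A, and ZHX2 at 0.649, 2.47 and 3.00 RPKM. The lower members included IRX3 (12.2, 5.31 and 9.92 RPKM). MEIS2, which acts as a partner of HOX proteins, was at 4.4995, 1.33 and 1.88 RPKM, 3.38-fold lower (2.90 to 3.96). None of 21 HOX genes compared was counted.

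Of 14 p53-family, grainyhead, AP-2 and GATA epidermal factors 3 were higher (21.4%) and 0 lower. The shares of all compared genes were 4.53% and 1.54%. GATA3 was at 4.04, 11.5 and 7.56 RPKM with empty vector, wild type and S264A (2.86-fold, 2.50 to 3.27). The other 2 were the grainyhead factors GRHL1 (0.467, 2.43 and 1.71 RPKM) and GRHL3 (2.43, 6.44 and 7.04 RPKM). GRHL1 entered through the wild-type library alone and could be counted as higher only. TP63 had a log2 difference of 0.16. CEBPA, a C/EBP factor of keratinocytes, was at 3.07, 11.2 and 4.36 RPKM, 3.65-fold higher (3.11 to 4.30). Of other families, FOXD1 was at 1.99, 8.15 and 9.44 RPKM. The zinc finger gene ZIC2 was at 0.973, 3.78 and 1.32 RPKM and also entered through the wild-type library alone. EPAS1, which encodes HIF-2 alpha, was at 1.68, 8.88 and 6.21 RPKM, 5.27-fold higher (4.67 to 5.96). HES2 and HES7, of the HES repressor family, were 2.37-fold (2.10 to 2.67) and 17.2-fold (7.26 to 49.6) higher, the latter from 6 reads.

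The lower factors included NR2F1, an orphan nuclear receptor, at 3.24, 0.467 and 1.61 RPKM with empty vector, wild type and S264A, 6.93-fold lower (4.63 to 10.8). It was the 1 gene counted of 23 nuclear receptors. AHR, the aryl hydrocarbon receptor gene, was at 21.4, 9.47 and 14.3 RPKM, 2.26-fold lower (2.10 to 2.44), and its textbook target CYP1B1, a cytochrome P450 gene, at 12.3, 2.36 and 5.04 RPKM, 5.22-fold lower (4.48 to 6.10). ID4 (5.51 to 2.18 RPKM) and KLF12 (1.61 to 0.259 RPKM) were lower as well. ETS factors, with 18 compared, had no member past the rule.

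Among metabolic lists the amino acid, polyamine and kynurenine list held 9 higher genes and 1 lower of 41. These are 22% and 2.44%, beside 4.53% and 1.54% over all compared genes. ASS1, which makes argininosuccinate in arginine synthesis, was at 45.1 RPKM with empty vector, 254 with wild type and 110.1 with S264A, 5.63-fold higher (5.43 to 5.84). NOS1, which turns arginine into nitric oxide, was at 0.154, 4.28 and 4.33 RPKM, 27.7-fold higher (21.5 to 36.3), and both THG-1 libraries stood at similar levels. Further arginine genes, named here after their values were seen, were ARG2 (0.142 to 2.53 RPKM), OAT (19.9 to 52.5 RPKM) and GATM (0.0704 to 1.42 RPKM). NOS1, ARG2 and GATM entered through the wild-type library alone and could be counted as higher only. The polyamine acetylase gene SAT1 (13.4, 48.5 and 22.5 RPKM, 3.62-fold, 3.35 to 3.92) and SMOX, which oxidizes spermine, were also higher. GAMT, the next enzyme of creatine synthesis after GATM, was lower, from 134 to 14 reads, while the creatine kinase gene CKB was higher (2.74, 10.9 and 15.0 RPKM). The list median of 0.25 became 0.00 with upper-quartile scaling.

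In central carbon metabolism, 4 of 33 genes of glycolysis and glycogen were higher (12.1%) and 0 lower. Of 30 genes of the citric acid cycle 1 was higher (3.33%) and 0 lower. Over all compared genes the shares were 4.53% and 1.54%. PYGB, a glycogen phosphorylase gene, was at 26.1, 118 and 113 RPKM with empty vector, wild type and S264A, 4.52-fold higher (4.34 to 4.71). HK2, a hexokinase gene, was at 7.18, 18.0 and 10.9 RPKM (2.50-fold, 2.32 to 2.70), PC, pyruvate carboxylase, at 2.53, 8.44 and 5.29 RPKM, and ENO2 at 0.904, 3.06 and 1.25 RPKM. None of the 15 pentose phosphate and NADPH genes or the 23 serine, one-carbon and methionine genes was counted in either direction. In nucleotide metabolism 4 of 43 genes were higher. TYMP, thymidine phosphorylase, was at 2.22, 14.5 and 2.43 RPKM, 6.56-fold higher (5.64 to 7.66), and the S264A level was close to the empty vector. UPP1, uridine phosphorylase, was 3.25-fold (3.02 to 3.51) and XDH, xanthine dehydrogenase, 5.01-fold higher (4.29 to 5.88). DCK, deoxycytidine kinase, was the 1 lower gene (5.14 to 1.92 RPKM). NME2 shares most of its sequence with NME1 and is uncertain.

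Lipid genes went both ways. PTGS2, which encodes the inducible cyclooxygenase, was at 0.989 RPKM with empty vector, 5.25 with wild type and 1.08 with S264A, 5.31-fold higher (4.40 to 6.42). HPGD, which degrades prostaglandins, was at 4.31, 0.455 and 3.11 RPKM, 9.47-fold lower (6.65 to 13.9). In both genes the S264A library lay nearer to the empty vector than to wild type. SPHK1, a sphingosine kinase gene, was at 0.798, 6.81 and 5.23 RPKM, 8.53-fold higher (6.90 to 10.6). In fatty acid synthesis ACSL5 and SCD5 of 22 genes were higher (9.09%), and in sterol synthesis MVD of 31 genes (3.23%), with 0 lower in either list. CYP4F11, of a P450 family that oxidizes fatty acids, was at 0.201, 2.46 and 1.31 RPKM. In fatty acid oxidation and transport FABP5 was higher (0.481 to 2.68 RPKM) and DECR1 lower (7.12 to 2.53 RPKM).

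Enzymes of retinoid and vitamin D metabolism were counted in both directions. CYP27B1, which makes the active form of vitamin D, was at 0.435, 5.50 and 2.82 RPKM with empty vector, wild type and S264A, 12.6-fold higher (9.24 to 17.6). ALDH1A3, a retinaldehyde dehydrogenase gene, was at 51.8, 162 and 71.8 RPKM, 3.13-fold higher (3.05 to 3.22), and CRABP2, which carries retinoic acid to the nucleus, at 14.3, 58.8 and 49.4 RPKM, 4.12-fold higher (3.68 to 4.61). ALDH1A1, a related retinaldehyde dehydrogenase, had 138 reads with empty vector, 0 with wild type and 28 with S264A. When 3 reads stand in for 0 it was 18.3-fold lower in wild type, which leaves out the counting error of the 138 reads. ALDH3A1 was at 9.67, 3.09 and 21.2 RPKM, 3.13-fold lower (2.65 to 3.73) with wild type and highest with S264A. CA2, a carbonic anhydrase gene, was at 90.3, 30.5 and 26.2 RPKM, 2.96-fold lower (2.75 to 3.19). Of 43 glutathione and thiol genes 1 was higher, SRXN1, and of 27 metallothioneins and metal transporters 2, MT2A and MT1F, whose sequences resemble those of other metallothioneins.

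In the cytoskeleton, keratins had the largest share of higher genes, 8 of 20 compared (40%), with 0 lower and a median of 0.68 that remained positive under upper-quartile scaling (0.53). KRT10, the type I keratin of suprabasal layers, was at 5.68 RPKM with empty vector, 32.1 with wild type and 17.5 with S264A, 5.64-fold higher (4.997 to 6.37). KRT81, a hair keratin, was at 0.582, 6.15 and 1.26 RPKM, 10.6-fold higher (7.30 to 15.6). The other 6, listed after their values were seen, differed in level. KRT14, KRT17 and KRT18 were abundant and between 2.42-fold and 2.57-fold higher, while KRT16, KRT20 and KRT23 were under 0.3 RPKM with empty vector and between 3.33 and 3.45 RPKM with wild type. KRT16, KRT20, KRT23 and KRT81 thus entered the comparison through the wild-type library alone. They could be counted as higher only, which raises the share and the median of the list.

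Pairs of keratins that form filaments together were not always shifted together. KRT18 was at 101, 246 and 104 RPKM and its simple-epithelial partner KRT8 at 126, 247 and 126 RPKM with empty vector, wild type and S264A. KRT18 was past the 2-fold rule and KRT8, with a log2 difference of 0.97, just short of it, while S264A lay close to the empty vector for both. KRT14 was at 119, 287 and 382 RPKM, whereas its basal-layer partner KRT5 was at 367, 240.5 and 329 RPKM, a ratio of wild type to empty vector of 0.655 (0.642 to 0.668). KRT1, the partner of KRT10, stayed below 1 RPKM in both compared libraries. KRT14, KRT16 and KRT17 have near-identical stretches and pseudogenes, as have KRT81 and KRT86.

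**Figure D4:**
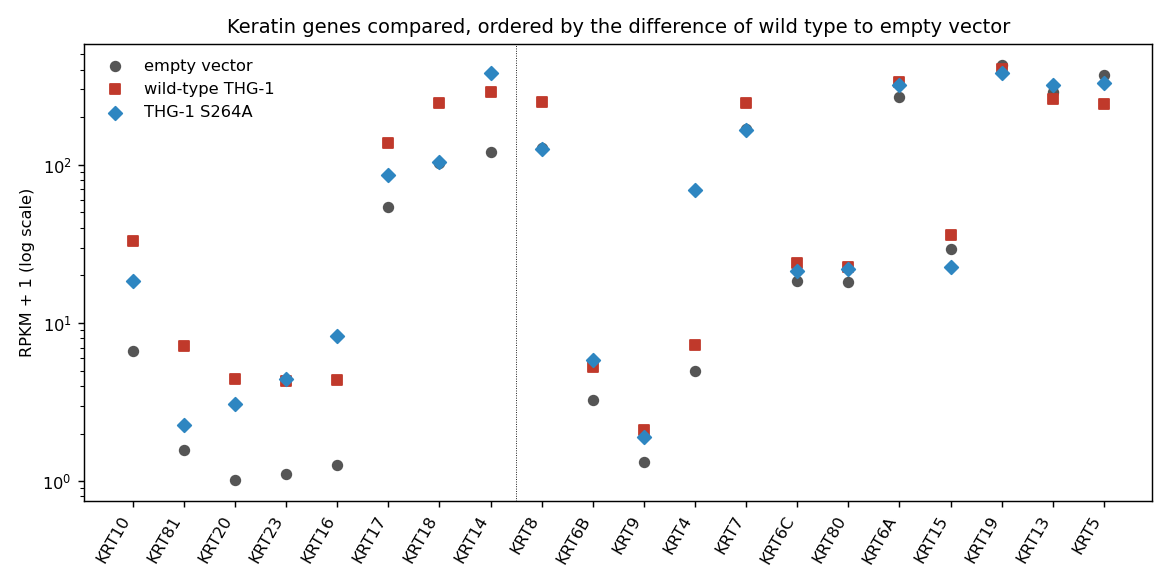
Level of the 20 compared keratin genes as RPKM + 1 (log y axis) in the empty-vector (grey), wild-type THG-1 (red) and S264A (blue) libraries, ordered by the log2 difference of wild type to empty vector. The 8 genes left of the dotted line were at least 2-fold higher, and KRT18 and KRT8 were close to equal between S264A and empty vector.

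Actin-related genes had scattered differences. CDC42EP5 and CDC42EP1, of the Borg family that binds CDC42, were both higher: the first was at 3.18, 27.1 and 8.13 RPKM with empty vector, wild type and S264A, 8.54-fold higher (6.75 to 10.9), and the second 2.86-fold (2.69 to 3.03). BASP1, a membrane-bound actin regulator, was at 3.50, 22.1 and 1.07 RPKM, 6.33-fold higher (5.44 to 7.39) with wild type and lower with S264A than with empty vector. LCP1, which encodes the actin bundler L-plastin, was at 0.287, 4.88 and 1.31 RPKM, 17.0-fold higher (12.5 to 23.5). The myosin list had 4 of 27 members higher (14.8%) and 0 lower, beside 4.53% and 1.54% over all compared genes. The higher ones were the cargo motors MYO5B and MYO5C, the light chain gene MYL9 (0.182, 2.75 and 0.773 RPKM) and MYH16. MYL9 entered through the wild-type library alone, and MYH16 was not placed as a protein-coding gene. Further higher genes were SMTN (1.36 to 4.54 RPKM) and TMOD1 (0.0925 to 1.69 RPKM), which act on thin filaments, and EPS8L1, MARCKSL1 and BAIAP2L2 among 40 crosslinkers. The dystrophin relative UTRN was 2.61-fold lower (2.36 to 2.89). FERMT1, kindlin-1 of keratinocyte adhesions, was at 17.2, 37.5 and 39.0 RPKM. ARHGDIB, a regulator of small GTPases, was higher as well (17.1 to 36.9 RPKM). The 55 genes of actin nucleation, capping and severing included no gene past the rule, with a median of 0.04 as deposited and -0.20 with upper-quartile scaling.

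Lower cytoskeletal genes were fewer. EPPK1, which encodes the plakin epiplakin, was at 27.5 RPKM with empty vector, 5.55 with wild type and 18.7 with S264A, 4.96-fold lower (4.67 to 5.27). DPYSL3, of the collapsin response mediators, was at 2.33, 0.186 and 0.249 RPKM, 12.5-fold lower (7.73 to 21.6). DBN1, drebrin, was at 4.95, 1.197 and 1.37 RPKM, 4.14-fold lower (3.28 to 5.29). In DPYSL3 and DBN1 the levels of both THG-1 libraries were similar. RHOBTB3, which encodes a BTB-domain protein, was at 53.5, 21.1 and 16.2 RPKM, 2.53-fold lower (2.43 to 2.65). Among motors KIF18A (2.63-fold, 2.32 to 2.98) and KIFAP3 (3.20-fold, 2.56 to 4.05) were lower and KIF3C higher (0.853 to 2.80 RPKM). Among microtubule-associated genes NAV3 was 3.17-fold higher (2.75 to 3.66).

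Of the class genes named above, the 2-fold rule was not met under at least 1 of the 3 other scalings for ARHGDIB, AXL, BAIAP2L2, BATF2, CTGF, ECM1, EGR1, ENO2, FERMT1, GPR110, GRHL3, HES2, HK2, ITGA5, JUN, KIF3C, LRRC8A, MARCKSL1, MPZL2, MT1F, MT2A, MVD, MYO5B, NAV3, PGF, SCD5, SEMA6B, SMOX, VEGFA and ZHX2, while their direction was kept. The higher genes were also shorter than the rest. The median gene length was 3595 bases for 433 protein-coding higher genes, 5119 for 135 lower genes and 5092 for the genes in neither group. The part of length in the levels was not tested.

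Differences were not spread evenly along the chromosomes. The 9772 protein-coding genes with a place in the RefSeq gene order were taken in 314 runs of at least 30 neighbouring genes, and the median log2 difference of a run ranged from -0.71 to 1.24. The highest run was the first of chromosome 20, from ZCCHC3 to ATRN, in which 30 of 30 genes were above 0 and 17 were at least 2-fold higher. Over the first 90 genes of chromosome 20 the median was 0.71, 86 were above 0, 29 (32.2%) were higher and 0 lower, against 4.08% higher among the other 9682 genes. The S264A library, read against the same empty-vector library, also had a median of 0.71 over these 90 genes. The remaining 201 genes of that chromosome had a median of 0.05. The class members counted as higher in the stretch were PYGB, CST2, BMP2, SMOX, FERMT1, IDH3B and SRXN1. With the median of its run subtracted, each of PYGB and CST2 was still past the 2-fold rule, while BMP2, SMOX, FERMT1, IDH3B and SRXN1 were not. The DNA copy number of the lines was not measured here.

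On the lower side, 5 runs were at or below -0.5, on chromosomes 4, 7 and 8. FGFR3 lay in the first run of chromosome 4, with a median of -0.66 with wild type and 0.01 with S264A. Both CA2 and DECR1 lay in a run of chromosome 8 with medians of -0.55 with wild type and -0.42 with S264A. The run from TSPAN13 to HOXA9 on chromosome 7, with medians of -0.52 and -0.24, held AHR. Smaller shifts lay short of -0.5. All runs of chromosome 13 were between -0.47 and -0.27 with wild type and between -0.05 and 0.03 with S264A. Some shifts were of S264A alone: the run of chromosome 16 that held IRX3 was at -0.04 with wild type and 0.42 with S264A. When the median of its run was subtracted from each gene, 504 genes were higher and 143 lower, and of the genes named by rule CA2, FGFR3 and MEIS2 no longer reached 2-fold. Of all counted class members with a place in the gene order, 17 of 127 higher and 14 of 47 lower ones fell short of 2-fold in this way. Each kept its direction. The lower ones were CA2, FGFR3, MEIS2, AHR, DECR1, DCK, FZD6, GPR37, ID4, KIF18A, KIFAP3, KLF12, MATN2 and MUC1. Beside those of chromosome 20 given above, the higher ones included AXL, BAIAP2L2, BATF2, GATA3, HES2, HTR1D, KIF3C, MPZL2, MT1F and SEMA6B.

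**Figure D5:**
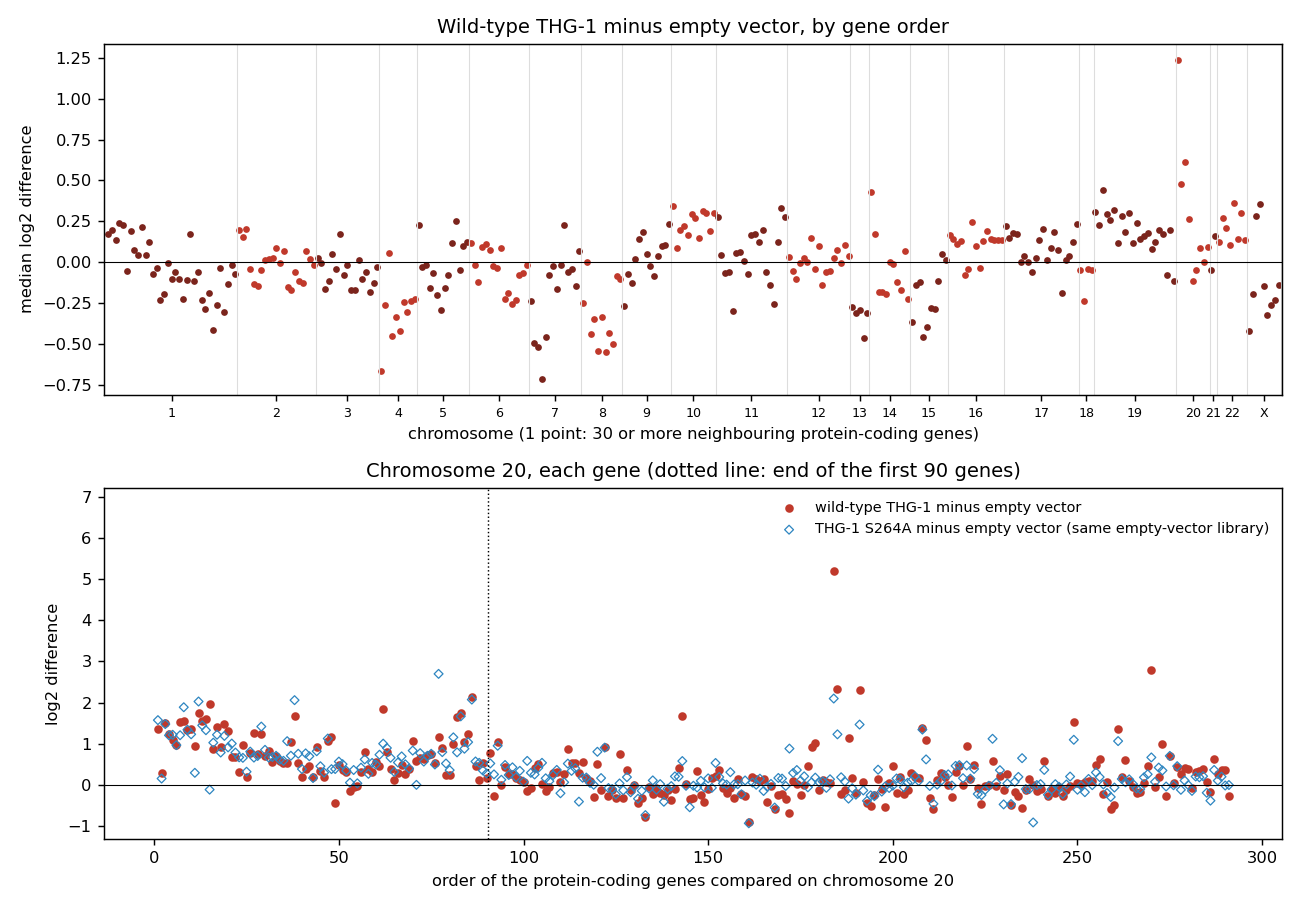
Upper panel: median log2 difference of wild-type THG-1 minus empty vector in runs of 30 or more neighbouring protein-coding genes, in chromosome order, with the first run of chromosome 20 highest at 1.24. Lower panel: log2 difference of each compared gene of chromosome 20 in gene order, for wild type (red) and S264A (blue) against the same empty-vector library, where nearly all of the first 90 genes lie above 0.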

How the data were processed

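RNA sequencing of 3 HaCaT lines, with 1 library each, was read from 1 deposited table of 57773 rows. Per the file headers, the authors gave 2 columns for each library, RPKM and normalized RPKM, and the latter was tested on the values and equals RPKM quantile-normalized over the 3 libraries. The submitters' processing notes name build hg19. Aligner, counting program, annotation and strandedness: not given in the sources used here. RPKM was used for the main values. Where a symbol had several rows (234 symbols), the one with the highest mean was taken.

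RPKM values fell on steps of whole reads. Depths were solved from these steps, and whole reads came out, within 0.001 reads, for 100.0% of 25998 rows above 0. Gene lengths came from GENCODE release 29 for 42.7% of these rows, from the nearest multiple of the smallest possible length for 28.1%, and from that smallest length for 29.2%, which can widen intervals. Read recovery was tested on simulated data. Ratios carry exact Clopper-Pearson 95% intervals, with a floor of 3 reads for a library at 0. Reads are not independent molecules.

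The log2 difference was taken on RPKM + 1 (a pseudocount of 1), genes at 1 RPKM or more in either library entered, and 2-fold was the rule. With 1 library per group no test was possible. The members and gene lists were chosen with earlier results of these data known. Genes named by rule were the 5 highest and 4 lowest of each class with at least 20 reads in the higher library, without inflammatory genes. The 10 highest and 10 lowest genes in no list were added, without pseudogenes and unnamed transcripts. Members counted in lists with 5 or fewer could also be named. Some of these genes and lists are not reported here. Other scalings, pseudocounts, filters and gene sets were tried. Older symbols are printed as in the table. Positions and promoters are of RefSeq (GRCh38.p14) and were matched by symbol. Python 3.11.15, numpy 2.4.6, pandas 2.3.3 and scipy 1.17.1 were used.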

Additional observations from a re-analysis of the deposited data

How the results depend on the processing

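Counts of genes past the 2-fold rule moved with the pseudocount, the filter and the scaling. A pseudocount of 0.1 gave 869 higher and 492 lower genes, a pseudocount of 5 gave 166 and 18, and a filter at 5 RPKM gave 317 and 70. Upper-quartile scaling gave 353 lower genes. The authors' quantile-normalized columns, equal sums, no filter, a filter on the mean of both libraries and protein-coding genes alone kept both counts within 1.5 times. Leaving out the first 90 genes of chromosome 20 gave 514 and 185, and subtracting the median of a gene's run gave 504 and 143. Both of these were chosen after seeing the data. Over the genes named by rule and all alternatives, 694 values kept their side of the 2-fold rule, 25 fell below it, mostly with a pseudocount of 5, and 0 reversed. Those genes were picked as the most different of each class and outside the lists. The class genes given above as short of the rule under another scaling are not among them. No paired analysis was possible because each line has 1 library. Depth limits low genes: 1 read in 1 kb is 0.0785 RPKM in the wild-type library, so that a level near 0 there is less well bounded than in the empty-vector library.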

Other observations

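Of the genes past the 2-fold rule, 366 higher and 135 lower ones were in none of the lists used. Among the higher ones, named by rule, were 2 genes better known from other tissues than skin. SCGB1A1, which encodes the airway secretoglobin CC10, was at 23.2 RPKM with empty vector, 369 with wild-type THG-1 and 472 with S264A, 15.9-fold higher with wild type (14.4 to 17.7). CALB2, which encodes the calcium-binding protein calretinin, was at 3.11, 32.9 and 31.6 RPKM, 10.6-fold higher (8.92 to 12.6). Its relative CALB1, calbindin, was at 5.84, 0.121 and 1.65 RPKM, 48.3-fold lower (26.9 to 97.0). CXorf49B, an uncharacterized gene with a near-identical copy, had 11 reads with empty vector, 224 with wild type and 0 with S264A. HIST1H3C, a histone H3 gene of a family with near-identical members, was at 5.57, 119 and 248 RPKM. SPRR2A and SERPINB2, whose promoters also held the letters TGANTCA, were higher too, with SERPINB2 at 43.1 RPKM in S264A between 13.7 and 248 RPKM.

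On the lower side, the matrix protein gene SPON2 had 691 reads with empty vector, 2 with wild type and 216 with S264A. It was 137-fold lower with wild type (37.9 to 1136). CBX5, which encodes the heterochromatin protein HP1 alpha, was at 25.6, 6.85 and 24.1 RPKM, 3.73-fold lower (3.51 to 3.98) with wild type, and the S264A level was close to that of the empty vector. SLCO1B3, an organic anion transporter gene, was at 4.13, 0.357 and 2.79 RPKM, 11.5-fold lower (7.14 to 19.98). LUZP2, a leucine zipper gene, had 747, 7 and 33 reads in the same order. The readthrough transcript TGIF2-C20orf24 was read 47 times with empty vector and 0 times with wild type, and it overlaps both of its parent genes, so that its reads are uncertain.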
